A study of Mus musculus with 24 samples.

Results

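Zfp352, Spz1, Ubtfl1 and Sp110 are 4 genes used as markers of the 2-cell mouse embryo and of the 2-cell-like state of mouse embryonic stem cells. They were picked by symbol: the gene IDs of the deposited count tables were matched to GENCODE mouse release M21, and these symbols accounted for 4 of the 55487 genes counted. RNA-seq of 24 libraries was used, in 12 groups of 2. All come from KH2, an embryonic stem cell line made to accept doxycycline-inducible transgenes, and every title carries TRE_DUX, a DUX transgene behind a doxycycline-responsive element. The 6 lines are WT and DUXBL-KO, and 4 whose titles carry pLV2: WT pLV2 line 1 and line 2, TRIM24-KO and TRIM33-KO. Each was sequenced without doxycycline (DOX) and after 16 h of DOX. What pLV2 is cannot be read from the labels, and the number behind it in WT titles was taken as a line number. No group lacks the transgene, so effects of DOX and of DUX cannot be told apart here. Each condition of a line has 2 libraries, and nothing in the labels says whether these are separate cultures, so p-values measure only the spread between these libraries, which may be technical.

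After fertilization the mouse genome is first transcribed strongly in the 2-cell embryo. DUX, a double homeodomain transcription factor, switches on many genes of that stage, together with the endogenous retrovirus MERVL and its long terminal repeat MT2_Mm, and a small share of embryonic stem cells enters a similar state without help. Zfp352 encodes a C2H2 zinc finger protein, Spz1 a basic helix-loop-helix leucine zipper protein known from testis, Ubtfl1 an HMG box protein related to the nucleolar factor UBTF, and Sp110 a nuclear body protein of the SP100 family.

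These genes lie on different chromosomes of GRCm38. Zfp352 (ENSMUSG00000070902.5) spans chr4:90218820-90225702 on the + strand with 2 exons, and Spz1 (ENSMUSG00000046957.5) is a gene of 1 exon at chr13:92574636-92576172 on the - strand. Ubtfl1 (ENSMUSG00000074502.4) spans chr9:18404418-18413177 on the + strand, and Sp110 (ENSMUSG00000070034.13) chr1:85576899-85598817 on the - strand. How far they are single-copy was checked by looking for each 75-base stretch of their transcripts, the read length, in the transcripts of all other genes. No stretch of Spz1 was found elsewhere (0 of 1463), 2.86% of those of Zfp352 also lie in Zfp353-ps, and 1.74% of those of Ubtfl1 lie in Naalad2 or Gm19174. In Sp110 30.4% of stretches (2123 of 6989) recur in other genes, most of them in Gm16026, so by this measure Sp110 is not single-copy and its counts are uncertain. The library kit marks strand, but whether the counting used it is not given in the sources used here.

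Libraries held 11784696 to 19136869 gene counts, and 3 counts, used here as the floor of detection, correspond to 0.144 to 0.381 CPM, where CPM is the count divided by the scaled library size. CT010467.1 alone made up 30.4% of gene counts in DOX replicate 2 of TRIM24-KO (Wilson 95% interval 30.41 to 30.46) and 12.9% in that of TRIM33-KO (12.84 to 12.87), so CPM here uses TMM-scaled library sizes. These intervals cover counting error only. Dux (Duxf3) had 0 to 2 counts in each library without DOX in its title and 20 to 110 in each library with DOX, and so it follows the titles in the 8 pLV2 libraries whose treatment tag says otherwise. Trim33 was lower in TRIM33-KO with DOX by a log2 fold change of -2.59 ± 0.07 (SE, edgeR quasi-likelihood test, adjusted p = 1.79e-12). Duxbl1 (0.47 ± 0.69, edgeR adjusted p = 0.854) and Trim24 (-0.14 ± 0.08, edgeR adjusted p = 0.187) did not pass the test in their knockouts with DOX. The Trim24 value is against the mean of both WT pLV2 lines, which differ. With DOX Trim24 had 95.1 to 99.7 CPM in line 1, 174 to 199 in line 2 and 120 to 123 in TRIM24-KO. DUXBL-KO and TRIM24-KO below therefore mean libraries labelled so. All 12 embryonic stem cell markers checked, among them Pou5f1 (500.1 to 833 CPM), were detected in every library. Fibroblast markers, checked since the growth protocol allows feeder cells, summed to 15.3 to 45.7 CPM. Of the 12 markers 5 were at 0 counts in no library, led by Thy1 (4.79 to 20.8 CPM) and Fbn1 (2.54 to 12.6 CPM), while Lum and Postn were at 0 in 23 libraries each. With DOX the sum was 41.3 to 45.7 CPM in WT pLV2 line 2 and TRIM33-KO and 24.8 to 34.5 CPM in the other 4 lines. Of 6 fibroblast markers tested, 2 or 3 were called higher and at most 1 lower with DOX in each pLV2 line, where 10% to 16.5% of all genes were called higher and 4.94% to 20.1% lower. In WT and DUXBL-KO 0 were called with edgeR. The part of these markers in the results below was not tested.

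The sequences before the start sites of Zfp352 and Sp110 are shown because they hold the longest run that any of these genes share with each other near their starts. They are the 250 bases before a RefSeq start (GRCm38.p6), 5′ to 3′ on the gene's strand, at chr4:90218570-90218819 (+ strand) for Zfp352 and at chr1:85603892-85604141 (- strand) for the more distal of the 2 RefSeq starts of Sp110, which lies 5074 bases upstream of the GENCODE model. Capitals mark the shared run of 15 bases and the letters TATAA.
Zfp352: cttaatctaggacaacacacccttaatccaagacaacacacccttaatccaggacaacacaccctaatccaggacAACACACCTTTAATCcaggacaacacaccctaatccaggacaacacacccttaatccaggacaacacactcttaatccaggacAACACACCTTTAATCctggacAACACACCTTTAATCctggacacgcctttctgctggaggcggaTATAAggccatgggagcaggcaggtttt
Sp110: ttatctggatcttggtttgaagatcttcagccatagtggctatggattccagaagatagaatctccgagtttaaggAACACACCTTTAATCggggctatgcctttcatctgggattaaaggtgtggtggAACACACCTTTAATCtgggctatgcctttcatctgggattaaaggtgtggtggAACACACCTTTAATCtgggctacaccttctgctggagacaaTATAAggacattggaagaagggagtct

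The run AACACACCTTTAATC occurs 3 times in each window, starting at bases -175, -92 and -71 from the start of Zfp352 and at -174, -121 and -68 from that of Sp110. TATAA begins at -28 in Zfp352 and at -27 in Sp110. Searched on both strands in the windows of 300 bases (250 before and 50 after the start) of all RefSeq genes, the run was found in 23 of 32851 windows (0.07%) and TATAA in 24.9%. The windows of Ubtfl1 and Spz1 and the nearer start of Sp110 do not contain the run. Their longest runs shared with another of these windows have 9, 10 and 10 bases. The palindromic homeodomain core GATTNAATC, searched on both strands, was in 0 of the 5 windows and in 0.268% of all windows. That says only that these letters are not in these windows. GC content was 45.3% to 55% in the 5 windows, against a median of 52.7% over all.

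The other windows with the run were looked at after it was found, so what follows is a description. They belong to 20 further genes. Of these 6 lie on chromosome 10, and their windows equal that of Gm4340, which is one of them, in 299 or 300 of 300 bases. In 21 windows the run lies on the gene's strand and is followed by TATAA, at a distance of 41 bases from its first base in 18 windows, Sp110 included, and of 43 bases in 2, Zfp352 included. Of the 20 genes, 9 were tested in both sets of libraries, and 7 of them, Gm12790, Gm12724, Gm33248, Gm21293, Gm4340, Gm35974 and Esp24, were called higher with DOX in all 6 lines. The 2 others, Pemt and I0C0044D17Rik, were called higher in 5 and 4 lines. Over all genes tested in both sets that share was 2.88% (497 of 17241). Genes that are near 0 without DOX enter the test only through their DOX libraries, so nothing is read from the share of tested genes. Gm4340 reached 92.2 to 917 CPM with DOX and Gm35974 8.92 to 141 CPM, and neither exceeded 0.617 CPM without it. The copies of the run nearest to the start are shown for both genes and for Sp110, with the run in capitals, at chr10:104193961-104193995 (+ strand), chr16:3468382-3468416 (+ strand) and chr1:85603935-85603969 (- strand). The 35 bases are the same in the 3 genes. They also occur in the windows of other genes with the run, among them Pemt, Gm12790, Gm21293 and the untested Gm52608. Around the copies in Zfp352 the bases differ from these.
Gm4340: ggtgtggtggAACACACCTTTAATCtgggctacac
Gm35974: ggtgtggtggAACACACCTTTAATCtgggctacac
Sp110: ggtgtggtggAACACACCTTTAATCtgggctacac

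The first comparison was DOX against no DOX within each line. In the 12 libraries without DOX the 4 genes were near or at 0, and in each of the 12 libraries with DOX all 4 were expressed, with no overlap between the conditions in any line. All 4 were called higher in each line (edgeR quasi-likelihood test, adjusted p under 0.05 over all genes). Among all genes tested the share called higher was 2.82% for WT, 4.5% for DUXBL-KO, 11.5% for TRIM24-KO and 16.5% for TRIM33-KO. For the WT pLV2 lines it was 10% (line 1) and 12.7% (line 2). DOX libraries lay above those without DOX, with no overlap in all 6 lines, for 8.17% of genes. Zfp352, Spz1 and Ubtfl1 had 3 counts or fewer in all 12 libraries without DOX and so entered the test only through their DOX libraries. Nothing is read from their calls beside these shares. The 4 genes were also chosen as markers of the state that DUX brings about, so the values below describe the size of the rise. In bulk RNA, more cells in the state and more RNA per cell cannot be told apart.

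Zfp352, the zinc finger gene, had 0 to 3 counts without DOX (median 1) and was at 0 in 4 of the 12 libraries. With DOX the WT replicates had 77.03 and 26.97 CPM and those of DUXBL-KO 125 and 104. WT pLV2 line 1 reached 51.6 and 69.01 CPM and line 2 172 and 195, beside 135 and 212 for TRIM24-KO and 288 and 269 for TRIM33-KO. Its lowest DOX library, WT replicate 2, still held 493 counts. Every group without DOX was at the floor, so folds are lower bounds against 3 counts per library: at least 251-fold higher in WT and at least 1899-fold higher in TRIM33-KO, with the other lines between these.

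Spz1, the testis helix-loop-helix gene, was at 0 counts in 10 of the 12 libraries without DOX and reached 2 counts at most. Its CPM with DOX was 12.1 and 5.25 for WT and 18.9 and 18.5 for DUXBL-KO. The WT pLV2 lines had 18.04 and 22.1 (line 1) and 42.5 and 37.8 (line 2), TRIM24-KO 28.3 and 43.97, and TRIM33-KO 70.2 and 63.2. These values rest on 96 to 790 counts. The lower bounds run from at least 41.7-fold higher in WT to at least 455-fold higher in TRIM33-KO.

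Ubtfl1, the UBTF relative, had 0 to 2 counts without DOX and was at 0 in 6 of 12 libraries. With DOX it measured 19.4 and 7.82 CPM for WT and 24.8 and 18.4 for DUXBL-KO. Line 1 of WT pLV2 had 33.6 and 41.99 CPM, line 2 had 63.2 and 51.4, TRIM24-KO had 25.5 and 43.8, and TRIM33-KO had 91.02 and 82.7. Unlike Zfp352 and Spz1 it was not higher in TRIM24-KO than in line 1, whose libraries lie within the TRIM24-KO range. Its bounds run from at least 65.7-fold higher in WT to at least 593-fold higher in TRIM33-KO.

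Sp110, the nuclear body gene, had 1 to 30 counts without DOX (median 6.5), with 3 or fewer, at or under the floor, in 3 of the 12 libraries. The highest were WT pLV2 line 1 replicate 2 with 30 counts and TRIM24-KO replicate 2 with 17. After DOX it had 154 and 66.6 CPM for WT and 285 and 182 for DUXBL-KO. Among pLV2 lines, line 1 of WT stood at 256 and 326 CPM, line 2 at 641 and 561, TRIM24-KO at 383 and 575 and TRIM33-KO at 1145 and 1052, or up to 12878 counts. Only WT was at the floor without DOX, where the rise was at least 530-fold. In DUXBL-KO and TRIM33-KO the ratio of means was 622 and 2372. In 2 other lines the size of the rise hung on the library without DOX: the mean with DOX exceeded the 7 and 30 counts of WT pLV2 line 1 by 605-fold and 151-fold, and the 4 and 17 counts of TRIM24-KO by 1993-fold and 486-fold. Line 2 had 4 counts and 1 count, and its rise was 3101-fold over the first library and at least 3269-fold over the second. Levels with DOX differed 2.07-fold between line 2 and line 1. Gm16026, which shares stretches with Sp110, went from at most 0.617 CPM without DOX to 42.3 to 631 CPM with DOX, and its part in the Sp110 counts was not tested. G530012D18Rik, which overlaps Sp110 on the other strand, stayed at or under 0.217 CPM.

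Between the lowest and the highest DOX library the level spread 10.7-fold for Zfp352, 11.6-fold for Ubtfl1, 13.4-fold for Spz1 and 17.2-fold for Sp110.

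**Figure D1:**
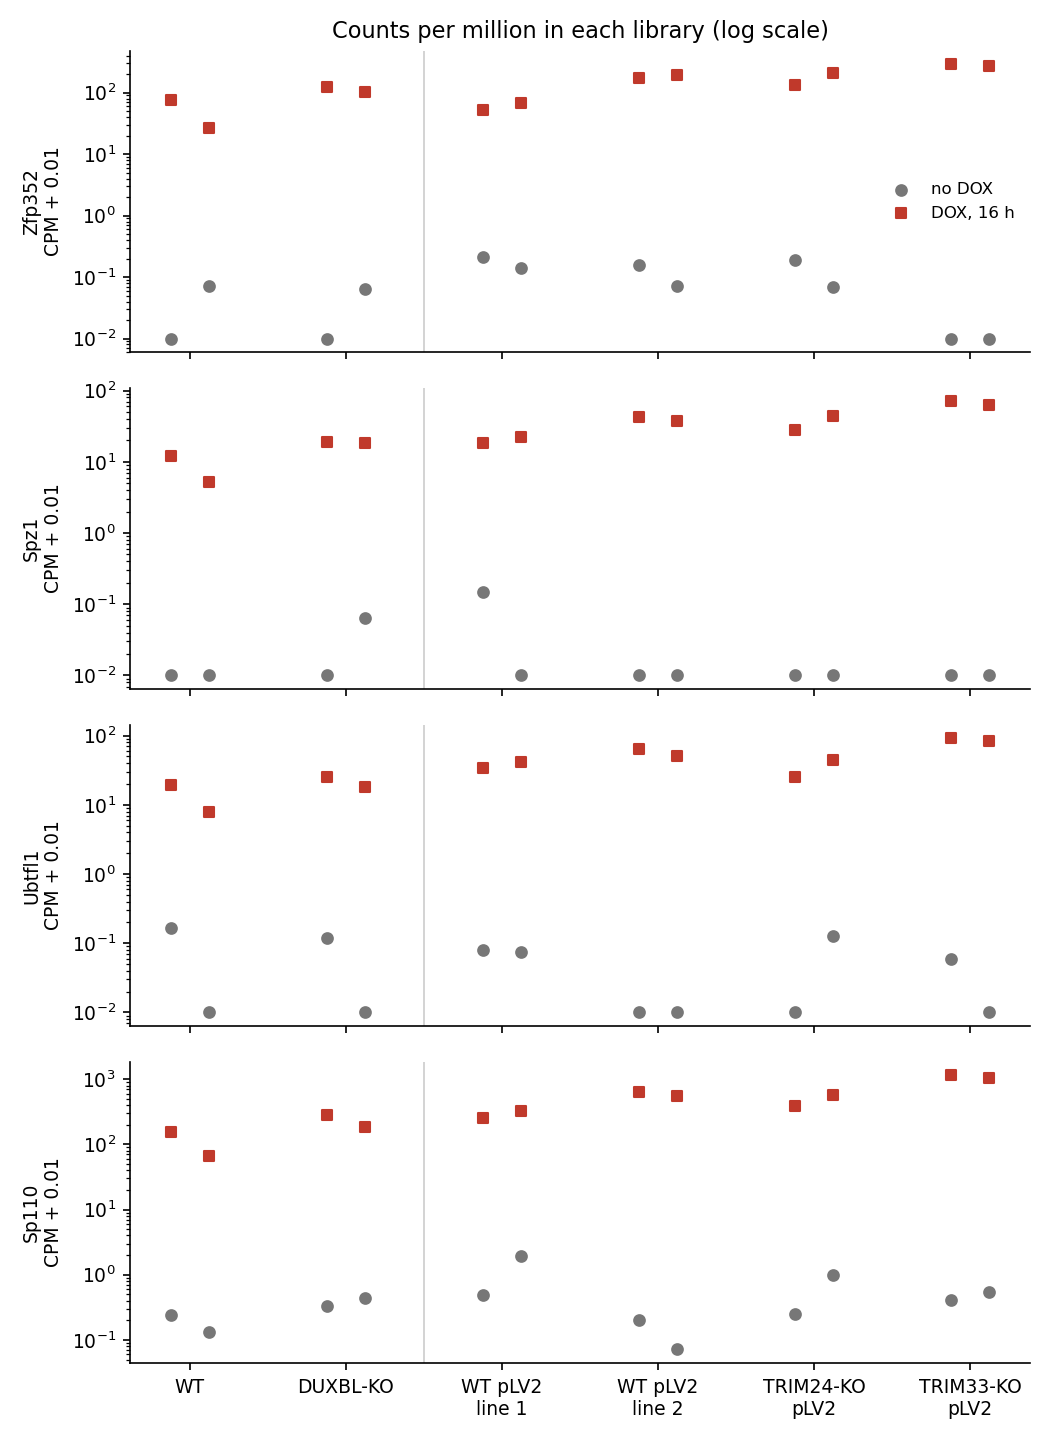
CPM + 0.01 of each gene in each of the 24 libraries on a log axis, grouped by line, with grey circles for libraries without DOX and red squares for libraries with 16 h of DOX. The grey line parts WT and DUXBL-KO from the pLV2 lines, and no grey point reaches a red point in any panel: the highest without DOX is Sp110 at 1.93 CPM and the lowest with DOX is Spz1 at 5.25 CPM.

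In log2 units the DOX effect in WT was 10.29 ± 0.95 (SE) for Zfp352, 10.19 ± 1.04 for Spz1, 7.49 ± 0.89 for Ubtfl1 and 9.27 ± 0.69 for Sp110. For genes at 0 these fitted values depend on the prior count and are no measure of size. In the same comparison the adjusted p ran from 0.00273 (Sp110) to 0.00718 (Ubtfl1). Without WT without DOX replicate 2, 0 of 4 genes passed, without replicate 1 of that group 2 passed, and with the 4 WT libraries fitted alone 0 passed. Over the alternatives the highest adjusted p of these genes lay between 0.0591 and 0.0765. Over all genes 2, 95 and 1 passed in these 3 fits in place of 529. In the other 5 lines all 4 genes passed in each alternative tried.

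The WT replicates with DOX also differed most from each other. Replicate 1 exceeded replicate 2 by 2.86-fold for Zfp352, 2.30-fold for Spz1, 2.49-fold for Ubtfl1 and 2.31-fold for Sp110, while Dux differed 1.26-fold on 23 and 20 counts. In TRIM24-KO with DOX the ratio of replicate 1 to 2 was 0.582 to 0.666 for the 4 genes and 1.03 for Dux, and replicate 2 is where CT010467.1 made up 30.4% of gene counts. The part of CT010467.1 in that gap was not tested. In WT pLV2 line 2 and TRIM33-KO the ratios of the 4 genes lay between 0.882 and 1.23.

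Levels can be set side by side between genes only per length, here as CPM per kb of exon with DOX. Zfp352 was the highest of the 4 in 7 of the 12 libraries and Sp110 in the other 5, and Ubtfl1 was the lowest in all 12. The ratio of Zfp352 to Sp110 per kb lay between 0.602 and 1.70 with a median of 1.04. Zfp352 exceeded Spz1 in 12 of 12 libraries, with a median ratio of 3.23, and Spz1 exceeded Ubtfl1 in 12 of 12, with a median ratio of 2.16. The Sp110 length is the union of exons of 9 transcripts, so its level per kb depends on which are expressed.

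**Figure D2:**
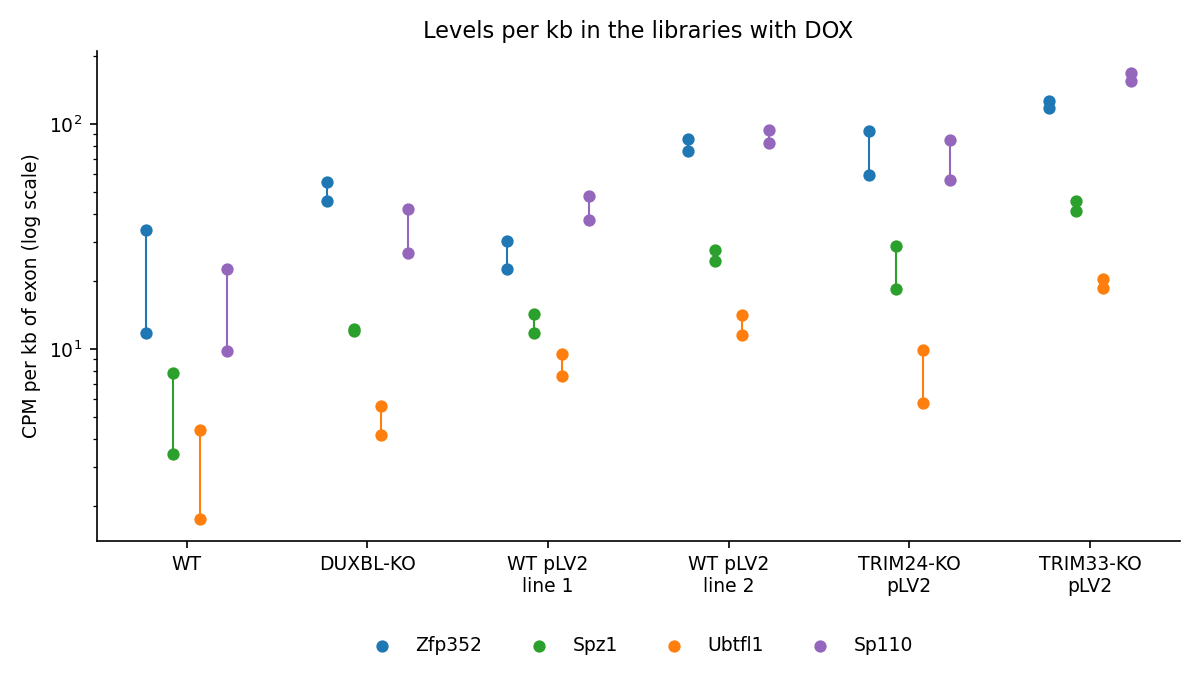
CPM per kb of exon (log axis) of the 4 genes in the libraries with DOX, by line, with a point per replicate and a line joining both. Ubtfl1 is the lowest point in each library, Zfp352 and Sp110 lead, Ubtfl1 runs from 1.76 to 20.5 CPM per kb and Sp110 from 9.82 to 168.8.

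Across lines with DOX, WT was lowest and TRIM33-KO highest in mean CPM for each of the 4 genes. The libraries of TRIM33-KO lay above those of all other lines for every one of them, for Zfp352 with 269 CPM against 212 CPM in the highest library of TRIM24-KO. For Zfp352 the order from low to high was WT and WT pLV2 line 1, which overlap, then DUXBL-KO, then TRIM24-KO and WT pLV2 line 2, which overlap, then TRIM33-KO. Spz1 and Sp110 had the order WT, DUXBL-KO, WT pLV2 line 1, TRIM24-KO, WT pLV2 line 2, TRIM33-KO, with overlap between DUXBL-KO and line 1 and between TRIM24-KO and line 2. Ubtfl1 had TRIM24-KO below line 1, with overlap. The Dux row was ordered otherwise: its highest level was in WT pLV2 line 1 (7.23 and 8.32 CPM) and not in TRIM33-KO (6.93 and 5.85 CPM). It rests on 20 to 110 counts per DOX library and was not checked for stretches shared with other genes. Whether it takes up transgene reads is not known, so it is no measure of DUX dose. The WT and DUXBL-KO libraries were scaled apart from the pLV2 libraries, so levels across these sets were not tested.

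The effect of the line was then tested with DOX present. DUXBL-KO exceeded WT in the mean for all 4 genes, by log2 fold changes of 1.14 ± 0.43 (SE) for Zfp352, 1.11 ± 0.40 for Spz1, 1.08 ± 0.37 for Sp110 and 0.67 ± 0.48 for Ubtfl1. With edgeR 0 of 4 passed the adjusted threshold (adjusted p = 0.426 to 0.687), where 0.072% of all genes did. At an unadjusted p under 0.05 there were 3 (Zfp352, Spz1 and Sp110), DESeq2 called 0 (170 over all genes), and without a filter on low counts 3 were called (908 over all genes). With the replicate number as a block 2 passed, Zfp352 at 1.30 (edgeR adjusted p = 0.0429) and Sp110 at 1.16 (0.0099), and over all genes 485 passed in place of 13. Without WT with DOX replicate 2 the differences were 0.57 for Zfp352, 0.63 for Spz1, 0.60 for Sp110 and 0.15 for Ubtfl1, and without replicate 1 of that group 2.08, 1.82, 1.81 and 1.46. Both DUXBL-KO libraries lay above both WT libraries for Zfp352, Spz1 and Sp110, and the groups overlapped for Ubtfl1. The 95% interval, not adjusted for the number of genes, reached from 0.31 to 1.98 for Zfp352, from 0.32 to 1.90 for Spz1, from 0.36 to 1.81 for Sp110 and from -0.27 to 1.60 for Ubtfl1.

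In TRIM33-KO with DOX all 4 genes were called higher than in the mean of both WT pLV2 lines, where 15.1% of all genes were. The log2 fold changes were 1.40 ± 0.13 for Zfp352 (adjusted p = 2.2e-06, edgeR), 1.39 ± 0.16 for Sp110 (1.14e-05), 1.23 ± 0.15 for Spz1 (4.17e-05) and 0.90 ± 0.15 for Ubtfl1 (4.82e-04). That is 2.65-fold for Zfp352 and 1.87-fold for Ubtfl1. Against line 2 alone the values were 0.60 for Zfp352, 0.87 for Sp110, 0.73 for Spz1 and 0.60 for Ubtfl1, and Ubtfl1 no longer passed. Against line 1 alone they were 2.21, 1.92, 1.73 and 1.20. Over all genes 646 and 7801 passed against these single lines, in place of 4845. Which WT line is the parent of which knockout is not given in the labels.

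For TRIM24-KO with DOX the 4 genes did not move together. Against the mean of both WT pLV2 lines Zfp352 was called higher by 0.71 ± 0.13 (adjusted p = 5.29e-04, edgeR) and Ubtfl1 lower by -0.45 ± 0.17 (0.0471), where 40.8% of all genes were called in either direction. Spz1 (0.33 ± 0.16) and Sp110 (0.19 ± 0.17) did not pass. These values depend on the reference line. Against line 1 alone, where 5822 of 18079 genes passed, Zfp352, Spz1 and Sp110 were higher by 1.51, 0.83 and 0.72 and passed, with Ubtfl1 at -0.15. Against line 2 alone, where 8469 genes passed, only Ubtfl1 did of the 4 (-0.75), and Zfp352 (-0.09), Spz1 (-0.17) and Sp110 (-0.33) changed sign. The Ubtfl1 call was also lost with only the compared groups in the fit (-0.47) and without TRIM24-KO with DOX replicate 1, line 1 with DOX replicate 2 or line 2 with DOX replicate 1 (-0.10 to -0.37). Its adjusted p ran from 6.53e-05 to 0.69 over all alternatives.

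The WT pLV2 lines also differed from each other. With DOX line 2 exceeded line 1 for Zfp352 by 1.61 ± 0.16 (adjusted p = 1.73e-06, edgeR), for Sp110 by 1.05 ± 0.20 (4.71e-04), for Spz1 by 1.00 ± 0.18 (6.59e-04) and for Ubtfl1 by 0.60 ± 0.19 (0.0177). Of all genes 19.5% were called higher in this comparison. The Dux row, whose limits are given above, was lower in line 2 (4.43 and 3.95 CPM against 7.23 and 8.32). Sp110 did not pass with DESeq2 (1.09), and Ubtfl1 did not pass without replicate 1 of either line with DOX (0.44 in both cases).

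**Figure D3:**
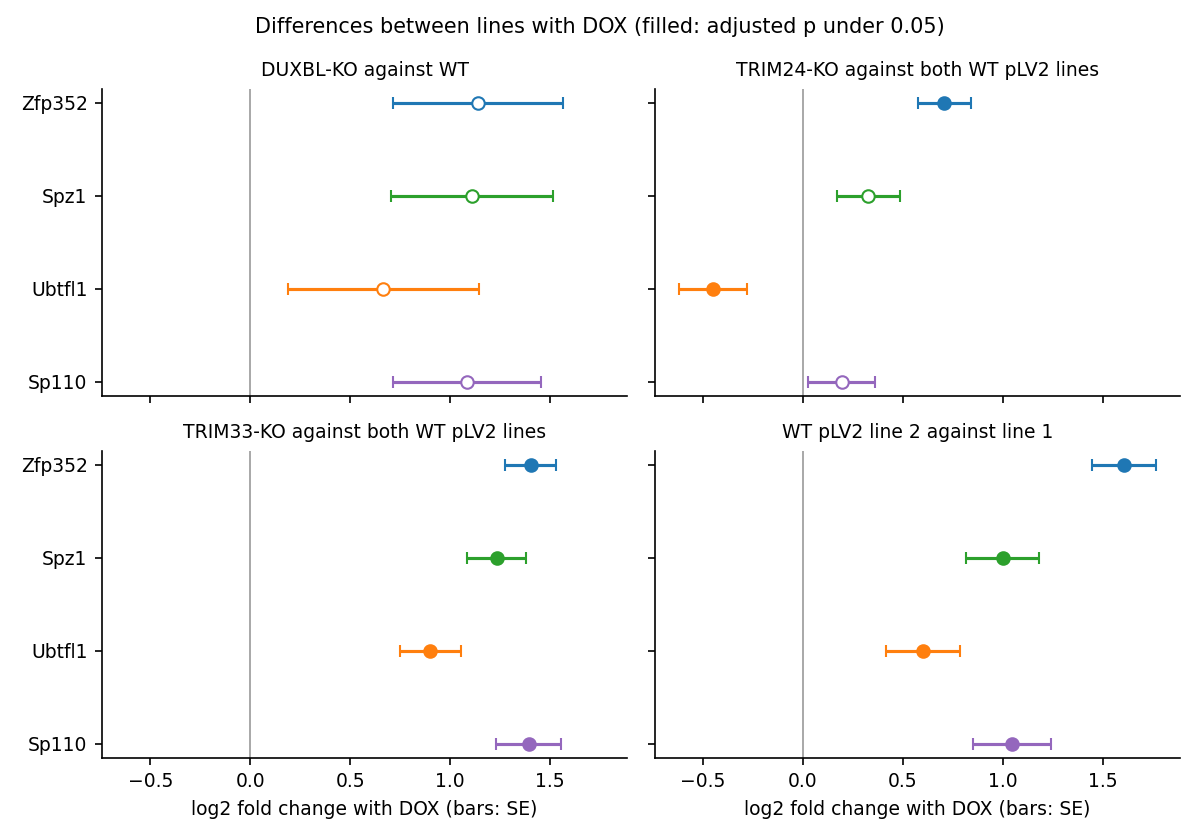
Log2 fold change with DOX of each gene in 4 comparisons between lines, with SE bars and filled points where the adjusted p is under 0.05. All 4 points are filled and right of 0 for TRIM33-KO and for WT pLV2 line 2 against line 1, none is filled for DUXBL-KO, and Ubtfl1 lies left of 0 (-0.45) for TRIM24-KO.

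Without DOX the 4 genes hardly allow a comparison, since most counts are at or under 3. No gene passed with edgeR in DUXBL-KO against WT (0 of 4, 0 at an unadjusted p under 0.05, 0.0388% of all genes called), in TRIM24-KO (0 of 4 and 0, 43.4%) or in TRIM33-KO against both WT pLV2 lines (0 of 4 and 0, 23.9%). DESeq2 called 0, 0 and 1 of the 4, the 1 being Zfp352, whose 4 WT pLV2 libraries had 1 to 3 counts and whose 2 TRIM33-KO libraries had 0. All of these counts are at or under the floor of 3. Between the WT pLV2 lines 1 gene passed, where 38.3% of all genes did. This was Sp110, with 7 and 30 counts in line 1 against 4 and 1 in line 2 (-3.10 ± 0.89, adjusted p = 0.0108, edgeR). With only these groups in the fit Sp110 was removed by the filter and had no value. It did not pass without line 1 without DOX replicate 2 or line 2 without DOX replicate 2. In the line 1 library with 30 Sp110 counts MERVL-int was at 132 CPM, as in the other replicate of its group (137 CPM).

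The interaction asks whether the DOX effect itself differs between lines. With edgeR it was called for 0 of 4 genes in DUXBL-KO against WT, where 0% of all genes were called (98 genes at an unadjusted p under 0.05, and 1 with DESeq2). It was likewise called for 0 of 4 in TRIM24-KO (0.437% of all genes), 0 of 4 in TRIM33-KO (0.575%) and 0 of 4 in WT pLV2 line 2 against line 1 (0.238%). At an unadjusted p under 0.05 there were 0, 0, 1 and 1 of the 4 genes in these 4 comparisons, and DESeq2 called 0, 0, 1 (Zfp352) and 1 (Sp110). The lowest adjusted p was that of Sp110 in line 2 against line 1 (4.15 ± 0.89, edgeR adjusted p = 0.0766), and it includes the library of line 1 with 30 counts without DOX. Zfp352 in TRIM33-KO had 5.47 ± 2.18. Counts near 0 without DOX make these errors wide.

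Over the 12 DOX libraries the levels of the 4 genes moved with each other to different degrees, described here as Pearson correlations of log2(CPM + 1) with no test, since libraries share lines and scaling. Spz1 and Sp110 were the most alike (r = 0.991), followed by Ubtfl1 and Sp110 (0.967), and Zfp352 and Ubtfl1 the least (0.819). The Dux row, no measure of DUX dose here, was most like Ubtfl1 (0.740) and least like Zfp352 (0.392). With the long terminal repeat MT2_Mm, r was 0.956 for Spz1, 0.950 for Sp110 and for Zfp352, and 0.915 for Ubtfl1. With MERVL-int, r was 0.929 for Zfp352, 0.879 for Spz1, 0.868 for Sp110 and 0.825 for Ubtfl1. MERVL-int rose from 91.3 to 239 CPM without DOX to 9902 to 89941 CPM with DOX.

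The genes most like each member over those 12 libraries, among 11838 candidates, were picked by the same r. For Zfp352 these were Fundc1, a receptor of mitophagy (0.991), Gm9030 (0.986) and the olfactory receptor gene Olfr376 (0.985). Those of Spz1 were the transporter gene Abcb5 (0.995), Usp17lc (0.994) and Nelfa (0.993), a subunit of the negative elongation factor. Those of Ubtfl1 were the deubiquitinase gene Usp17la (0.996), Uap1 (0.988), which encodes an enzyme of UDP-GlcNAc synthesis, and A530040E14Rik (0.988). Sp110 was most like Gm16026 (0.997), Gm15753 (0.995) and Sp140 (0.993), and it shares 75-base stretches with Gm16026 and Gm15753, so these can carry some of the same reads. Of these 12 genes 11 were called higher with DOX in all 6 lines, and Gm9030 was not, where 2.88% of all genes were. They were picked for their likeness to genes that rose with DOX, so nothing is read from that count.

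Genes within 100 kb were looked at next. Of 10 tested neighbours 5 were called higher in WT, 5 in DUXBL-KO, 7 in WT pLV2 line 1, 6 in line 2, and 7 each in TRIM24-KO and TRIM33-KO. The share over all genes was 2.82% in WT, 4.5% in DUXBL-KO and 10% to 16.5% in the pLV2 lines, and 2.88% were called higher in all 6 lines. A neighbour near 0 without DOX enters the test only through its DOX libraries, so nothing is read from these counts. Zfp352 had no tested neighbour. Next to Sp110, all 3 tested neighbours were called higher in all 6 lines: Sp140, its relative on the opposite strand 1561 bases from the GENCODE model of Sp110, the antisense gene Gm10552 and the pseudogene Gm2427. The distal RefSeq start of Sp110 lies inside Sp140 (chr1:85600378-85645037), and the window before it reaches into Gm10552 (chr1:85604085-85611896), so from that start Sp110 and Sp140 overlap and their counts are uncertain. Sp140 had 0 to 5 counts without DOX and with DOX reached 87.4 and 69.6 CPM in TRIM33-KO, against 9.54 and 4.81 CPM in WT.

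Beside Ubtfl1, Naalad2, a dipeptidase gene on the opposite strand 1423 bases upstream, and the pseudogene Gm19174 within it were called higher in all 6 lines, and Gm5612 in the 4 pLV2 lines. Naalad2 had 13.1 and 4.49 CPM in WT and 25.96 and 23.2 CPM in TRIM33-KO with DOX, and at most 0.432 CPM without. Naalad2 and Gm19174 hold stretches that also lie in Ubtfl1, and strand use in counting is not known, so their counts are uncertain. Around Spz1, Zfyve16 was called higher in 3 lines, by 0.36 to 0.69, and Serinc5 in none.

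**Figure D4:**
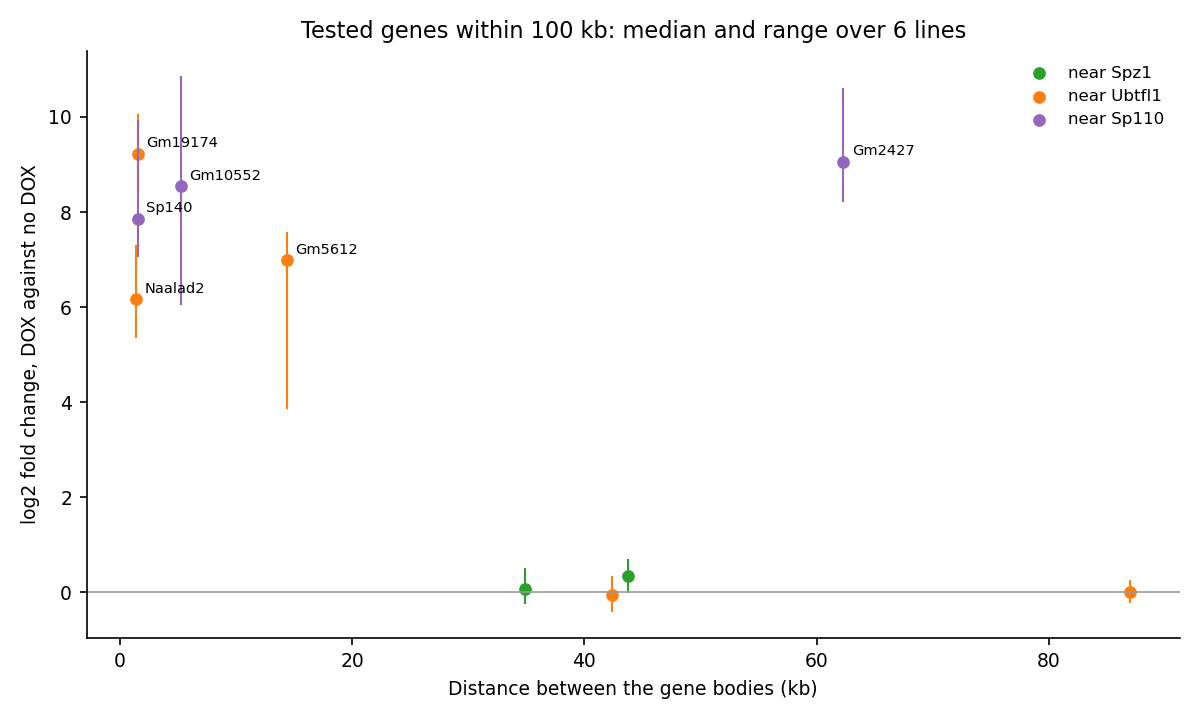
Log2 fold change of DOX against no DOX for the 10 tested genes within 100 kb of Spz1, Ubtfl1 or Sp110, against the distance between the gene bodies in kb, with the median over 6 lines as a point and the range as a line. Sp140, Gm10552, Gm2427, Naalad2, Gm19174 and Gm5612 lie above the rest.

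Other genes of the 2-cell stage, and genes linked to Sp110 or to UBTF, the relative of Ubtfl1, were described by fixed lists. The other 2-cell genes listed were 20 (Zscan4, Tcstv, Tdpoz and Usp17l families, Tmem92, Slc34a2 and Ddit4l). With DOX 18 were called higher in WT, 19 in DUXBL-KO and 20 in each pLV2 line. In each line 7 to 19 of the 20 were at the floor without DOX. The share over all genes was 2.82% in WT, 4.5% in DUXBL-KO and 10% to 16.5% in the pLV2 lines. Nothing is read from these counts, since a gene near 0 without DOX enters the test only through its DOX libraries. With the mean without DOX set to no less than 3 counts, the median log2 ratio of mean CPM was 7.99 (WT) to 11.00 (TRIM33-KO), a lower bound for genes at the floor. The WT count fell to 0 without WT without DOX replicate 2 and with the 4 WT libraries fitted alone. Zscan4d, a zinc finger gene of the 2-cell stage, reached 559 and 230 CPM in WT and 2360 and 2152 CPM in TRIM33-KO. Summed, the list had 5.48 to 15.4 CPM without DOX and 1652 to 16678 CPM with DOX. These genes too were chosen as markers of the state.

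Of the SP100 family and the genes of PML nuclear bodies, Sp140 was the only one of 7 tested that was called higher in any line. It was called in all 6, where 2.82% (WT) to 16.5% (TRIM33-KO) of all genes were called higher. Its WT call was lost with only the compared groups in the fit. Sp140 had 0 to 5 counts without DOX and entered the test only through its DOX libraries, so nothing is read from its calls. Pml was called lower with DOX in line 2 (-0.38 ± 0.09) and TRIM33-KO (-0.43 ± 0.09). Morc3 was called lower in TRIM24-KO, line 2 and TRIM33-KO (-0.22 ± 0.06, -0.29 ± 0.06 and -0.39 ± 0.06). The share of all genes called lower was 4.94% in TRIM24-KO, 14% in line 2 and 20.1% in TRIM33-KO. Sp110 is known to be interferon-inducible. Of the interferon-stimulated genes listed, 9 were tested in WT and DUXBL-KO with 0 called, and 12 in the pLV2 lines with 1 called higher and 1 to 3 lower in each line. Among all genes 10% to 16.5% were called higher there and 4.94% to 20.1% lower, so nothing is read from these counts about the list. In the pLV2 lines Stat2, of interferon signalling, rose by 0.27 ± 0.10 to 0.50 ± 0.10, and the RNA sensor gene Ddx58 changed by -0.37 ± 0.11 to -0.89 ± 0.11. Summed, the list had 142 to 238 CPM without DOX and 133 to 213 CPM with it.

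The 15 genes of RNA polymerase I transcription, the process of the UBTF relative of Ubtfl1, had 0 calls in WT and DUXBL-KO with edgeR. In each pLV2 line 1 was called higher, Taf1d, a subunit of the selectivity factor, with 0.53 ± 0.07 in line 1 and 0.93 ± 0.07 in TRIM33-KO. Lower were 0 genes in line 1 and TRIM24-KO, 2 in line 2 and 6 in TRIM33-KO, among them Ubtf itself (-0.32 ± 0.06 in TRIM33-KO). Of all genes 6.25% were called lower in line 1, 4.94% in TRIM24-KO, 14% in line 2 and 20.1% in TRIM33-KO. Of the 12 embryonic stem cell markers, 0 were called in WT and DUXBL-KO with edgeR. Line 1 of WT pLV2 had 3 called higher and 3 lower, TRIM24-KO had 1 higher and 5 lower, and line 2 and TRIM33-KO each had 1 higher and 6 lower. Those higher were Nanog in line 1, line 2 and TRIM33-KO (0.33 ± 0.07, 0.24 ± 0.07 and 0.28 ± 0.07), Sall4 in line 1 and TRIM24-KO (0.23 ± 0.07 and 0.32 ± 0.07) and Tdgf1 in line 1 (0.26 ± 0.08). Among those lower was the pluripotency factor Tfcp2l1 in TRIM24-KO, line 2 and TRIM33-KO (-0.39 ± 0.08, -0.26 ± 0.08 and -0.34 ± 0.08), while Pou5f1 lay between -0.19 and -0.00 over the 6 lines and passed in none.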

How the data were processed

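The deposited files give, per library, whole-number counts of reads per gene and per repeat subfamily. Per the labels' protocols, RNA was depleted of ribosomal RNA, libraries were directional, and reads were paired with 75 bases. Per the submitters' processing notes, bcl2fastq 2.20.0, cutadapt 1.18, STAR 2.7.6a and mm10 were used, while the counting tool, its strand setting and its handling of multiple hits are not given in the sources used here. Counts of repeated sequence can therefore be shared or lost.

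Gene IDs were matched to GENCODE M21 (54435 with version, 792 without, 260 unmatched). Counts of 8 WT and DUXBL-KO libraries and of 16 pLV2 libraries were fitted apart with edgeR 4.0.16 (R 4.3.3, TMM factors from gene counts, filterByExpr, quasi-likelihood test). This left 18060 and 18079 genes and 18 comparisons, each with Benjamini-Hochberg adjustment over all genes and a threshold of 0.05. SE is the log2 fold change over the square root of F, and intervals are 1.96 SE on each side. Folds of groups with at most 3 counts in each library were computed against 3 counts per library. The fits were tested on counts simulated from the fitted model, with changes made only in genes well above the floor. That test says nothing about genes near 0 without DOX. Alternatives were RLE factors, no filter, a minimum mean of 10 counts, repeats added to the library sizes, leaving out CT010467.1, a replicate block, DESeq2 1.42.0, only the compared groups, either WT pLV2 line alone as reference, and each replicate left out.

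The 4 genes, the gene lists and the tests were chosen with earlier results of these data known. Named further genes were the 3 most correlated with each member among 11838 genes with a mean of at least 50 counts with DOX, the tested genes within 100 kb, and up to 3 genes per list by rule. Genes named beyond these, and the genes with the run of 15 bases, were chosen after their values were seen. Replicate numbers were treated as names, since nothing in the labels says that they pair cultures. Sequences were taken from RefSeq windows of GRCm38.p6, which matched 4 of the 4 symbols. A further gene that the selection rule names is not reported here.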

Additional observations from a re-analysis of the deposited data

How the results depend on the processing

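The count of the 4 genes called was within 1.5 times of that reported in 236 of 256 recomputations, and all 18 counts held with RLE factors, with a mean of at least 10 counts, with repeats in the library size and without CT010467.1. The causes of the changes were not tested. The DOX effect in WT called 0 genes with only the compared groups and 0 to 4 with 1 replicate left out. With no filter on low counts 3 genes were called for DUXBL-KO with DOX, 4 for TRIM24-KO with DOX, and 1 each for TRIM33-KO without DOX, the TRIM33-KO interaction and the interaction of line 2 with line 1. DESeq2 called 1 in each of the last 3, and line 1 alone as reference called 1 in the TRIM33-KO interaction. For TRIM24-KO with DOX 1 was called with only the compared groups, 1 against line 2 alone, and 1 to 2 with a replicate left out. Leaving out a replicate gave 0 to 1 for line 2 against line 1 without DOX and 0 to 1 for their interaction.

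Signs changed in TRIM24-KO with DOX for Sp110 with a replicate left out (-0.11 to 0.44), and against line 2 alone for Zfp352 (-0.09), Spz1 (-0.17) and Sp110 (-0.33). With the replicate block, 2 genes passed in DUXBL-KO with DOX, Zfp352 (1.30) and Sp110 (1.16), and it changed no other member count. Same-numbered libraries with and without DOX correlated in their deviations by 0.49 in WT and 0.70 in DUXBL-KO, by 0.18 in TRIM24-KO and 0.30 in line 2, and by 0.02 in line 1 and 0.10 in TRIM33-KO. The labels do not say that a number marks a shared culture, so the fit without the block was kept, and whether the numbers pair WT and DUXBL-KO libraries is not known. Only the compared groups gave no value without DOX for DUXBL-KO, TRIM33-KO and line 2 against line 1, where no member passed the filter, and was not run for the DUXBL-KO interaction, whose groups are the whole set. Without DOX, counts at or under 3 limit what could be detected.

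Counts over all genes moved by more than 1.5 times in some settings. No filter gave 1110 in place of 529 for DOX in WT, 1540 in place of 886 for DOX in DUXBL-KO, and 908 in place of 13 and 586 in place of 7 for DUXBL-KO with and without DOX. The replicate block gave 961, 1594, 485 and 440 there, and DESeq2 gave 170 and 176 in the last 2. With only the compared groups the DOX effect had 1 call in WT and 2725 in place of 4838 in line 2, DUXBL-KO had 1 with DOX and 0 without, and the TRIM24-KO interaction had 41. TRIM33-KO with DOX had 4845 calls, but 7801 against line 1 alone and 646 against line 2 alone, and without DOX 4323, 7390 and 274. The interactions of TRIM24-KO, TRIM33-KO and line 2 had 79, 104 and 43 calls, 224, 350 and 247 with no filter, 97, 195 and 126 with DESeq2, and 20 to 73, 28 to 139 and 9 to 77 with a replicate left out. Against line 1 and line 2 alone the TRIM24-KO interaction had 36 and 65 and that of TRIM33-KO 292 and 0. Without CT010467.1 the TRIM24-KO interaction had 47, and with RLE factors 45. Leaving out a replicate gave 2 to 635 for DOX in WT, 496 to 563 in DUXBL-KO, 1575 to 1945 in place of 2942 in line 1, 2934 to 4038 in line 2, 1938 to 2659 in place of 2969 in TRIM24-KO and 4392 to 5163 in place of 6611 in TRIM33-KO. It gave 0 for DUXBL-KO with and without DOX, and 2719 to 4861 and 2104 to 4551 for TRIM33-KO with and without DOX. With RLE factors the split of higher to lower calls moved from 2304 and 2534 to 2619 and 1774 for DOX in line 2, from 2978 and 3633 to 3499 and 2676 in TRIM33-KO, and from 64 and 15 to 29 and 16 for the TRIM24-KO interaction. With only the compared groups Sp140 was not called in WT.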
